A study of Mus musculus with 2 samples.

Results

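Skin Tregs that carried RNA of Il13, the gene of the type 2 cytokine interleukin-13, are described here: 1144 of the 5544 skin cells that passed a common set of filters, or 20.6%. They were taken from a skin library of 6601 cell barcodes, in a series that holds 15331 barcodes from skin and lung. A cell was kept if it had at least 200 detected genes, at most 10% mitochondrial counts, at least 1 count of the T cell receptor subunits Cd3d, Cd3e and Cd3g together, fewer than 3 counts of the cell cycle genes Mki67, Top2a, Birc5, Cdk1 and Ccna2 together, and none of Ccr7, a lymph node homing receptor. Among these, a cell with at least 1 Il13 UMI was Il13-positive, and the 4400 cells with none formed the comparison. A UMI is a molecular tag that marks 1 captured RNA molecule. Because the cells were chosen by their Il13 counts, Il13 was left out of every total and every ratio below.

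The series holds 1 library from the back skin of adult Foxp3-CreERT2GFP mice and 1 from the lung of adult Foxp3-GFP mice of the Tachilla strain, both C57Bl/6. In each tissue, cells freed with collagenase were sorted as GFP+ CD4+ CD3+ CD45+, GFP reporting the activity of Foxp3, the master transcription factor of Tregs, and sequenced by 10x 3' v2 chemistry. The number of mice behind each library is not given in the sources used here, and the reporter alleles differ between the tissues. No cell of the 3606 lung cells that passed the same filters held an Il13 UMI, which allows a share of up to 0.0832% (3 counts of the total, the limit used for every share of 0), and the 2 libraries shared 82 barcodes. All comparisons below are therefore within the skin library. It is 1 sample, so no test was possible. Intervals are exact 95% intervals that cover counting error only, and neither the spread between cells nor that between mice.

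Tregs restrain other immune cells, and those of barrier tissues also make repair factors such as amphiregulin. In skin many of them carry GATA3, the transcription factor that drives the type 2 programme of helper T cells, and ST2, the receptor for the alarmin IL-33, encoded by Il1rl1. Interleukin-13, interleukin-4 and interleukin-5 are the classical type 2 cytokines, made by helper T cells and by type 2 innate lymphoid cells (ILC2), and their genes are neighbours in the mouse genome.

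At the 1.5-fold size used here, few genes went with Il13 in these cells, 13 of 2973 being higher and 51 lower. With a threshold of 2 Il13 UMIs there were 66 and 118 of 3071. Il4, the interleukin-4 gene, was 4.56-fold higher in the Il13-positive cells than in Il13-zero cells of equal depth, Calca, which encodes calcitonin and the neuropeptide CGRP, 2.35-fold, and Il10, which encodes a suppressive cytokine, 1.93-fold. Gata3 was 1.17-fold higher and Il1rl1 stood at a ratio of 0.999, so that the type 2 transcription factor and the IL-33 receptor barely set these cells apart from their neighbours. Izumo1r, the folate receptor 4 gene of Tregs, and Cd40lg, the costimulatory CD40 ligand gene, were lower.

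By GENCODE M21 annotation of GRCm38 (mm10), Il13 lies on chromosome 11 at chr11:53631324-53634702, on the minus strand. Il4 lies on the same strand at chr11:53602982-53618669, and Il5 on the plus strand at chr11:53720794-53725106, with the DNA repair gene Rad50 between Il13 and Il5 at chr11:53649519-53707319. The 250 bases before the start of the 3 cytokine genes of this type 2 cluster are shown from RefSeq promoters of GRCm38.p6. Each is 5′ to 3′ on the strand of its gene. Of the 3 genes, only Il13 was used to choose the cells. Capitals mark GATAA, a core that GATA factors such as GATA3 bind, or its reverse complement TTATC.
Il13, chr11:53634703-53634952, minus strand: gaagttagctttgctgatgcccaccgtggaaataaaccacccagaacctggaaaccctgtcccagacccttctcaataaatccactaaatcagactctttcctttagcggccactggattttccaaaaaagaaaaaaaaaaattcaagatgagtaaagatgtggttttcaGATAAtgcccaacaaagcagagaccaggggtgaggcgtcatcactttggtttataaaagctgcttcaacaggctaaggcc
Il4, chr11:53618666-53618915, minus strand: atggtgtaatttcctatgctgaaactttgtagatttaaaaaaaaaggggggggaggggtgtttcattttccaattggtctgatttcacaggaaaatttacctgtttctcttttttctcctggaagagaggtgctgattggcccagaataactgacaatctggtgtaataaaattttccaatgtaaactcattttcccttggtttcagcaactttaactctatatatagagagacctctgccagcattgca
Il5, chr11:53720544-53720793, plus strand: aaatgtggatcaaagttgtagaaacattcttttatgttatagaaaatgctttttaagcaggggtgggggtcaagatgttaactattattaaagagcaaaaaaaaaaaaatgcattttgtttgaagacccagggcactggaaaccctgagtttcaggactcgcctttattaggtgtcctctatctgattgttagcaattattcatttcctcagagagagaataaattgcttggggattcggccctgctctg
The Il13 window holds 1 match on either strand, and the Il4 and Il5 windows hold 0. A further Il4 start in RefSeq, at chr11:53617339-53617588, also holds 0, the 2 Il1rl1 windows hold 2 and 1, the Areg window holds 0 and the Calca window 1. Of 32851 RefSeq promoter windows of 250 bases, 22.6% hold at least 1 match, so that a match in such a window is common.

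Il13 itself was unevenly spread among the cells it selected. Of the 1144 cells, 732 (64.0%) held a single Il13 UMI, 237 held 2 to 3 and 175 (15.3%) held 4 or more. Those 175 cells held 51.5% of the 2682 Il13 UMIs in filtered skin cells, 36 cells held 10 or more, and the highest cell held 53. The cells just inside the threshold, with 1 Il13 UMI, had a median of 2169.5 other UMIs and those just outside it, with 0, a median of 1981.

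**Figure D1:**
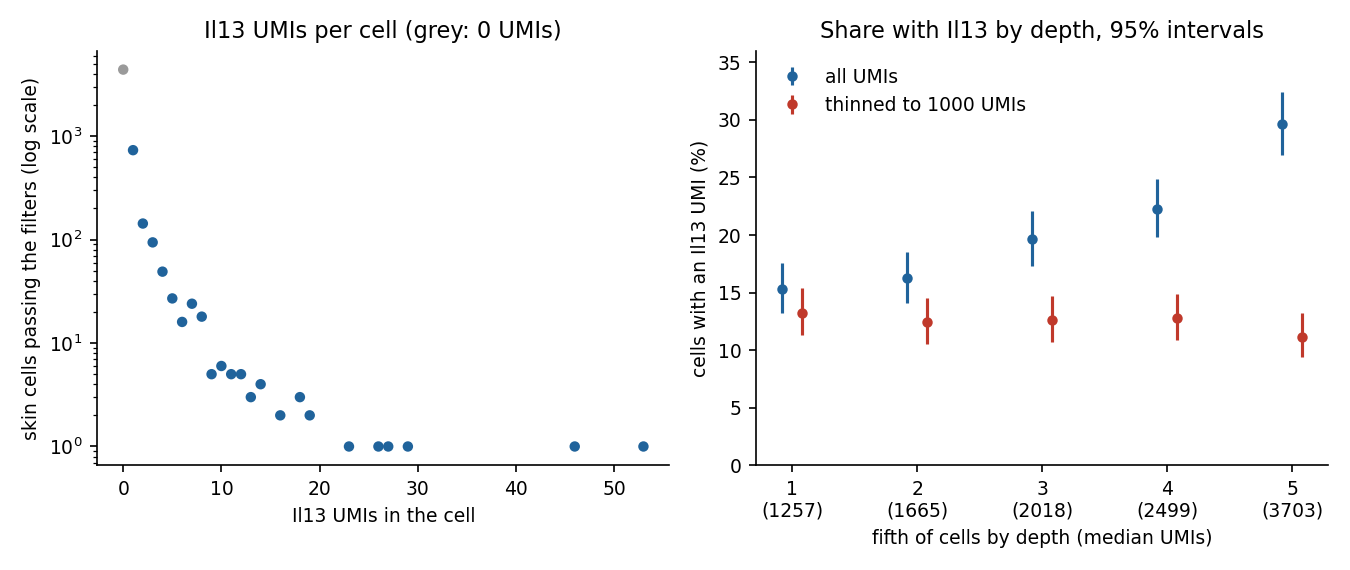
Left, number of filtered skin cells (log scale) against their Il13 UMIs, with the 4400 Il13-zero cells in grey; right, share of cells with an Il13 UMI in 5 equal groups of cells by depth, before and after thinning every cell to 1000 UMIs, with 95% intervals. The raw share climbed from 15.3% to 29.7% with depth, while the thinned share ran between 11.2% and 13.3%.

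Depth decided in part which cells were seen as Il13-positive. In the shallowest of 5 equal groups of filtered cells, with a median of 1257 UMIs, 15.3% held an Il13 UMI (13.3 to 17.6), against 29.7% (27.0 to 32.5) in the deepest, with a median of 3703. Once every cell had been thinned at random to 1000 UMIs the shares in the 5 groups ran from 11.2% to 13.3%, and the overall share was 12.4% (11.6 to 13.3). An Il13-zero cell is thus a cell in which no Il13 molecule was captured, not one shown to lack it. For the comparisons, each Il13-positive cell was paired with the unused Il13-zero cell nearest in depth, within 10%. This gave 1142 cells on each side, with a median of 2249 UMIs in both.

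Free RNA in the droplets was looked at in cells with markers of other cell types. In 84 filtered cells (median 5475 UMIs), marker lists of fibroblasts, keratinocytes, endothelial cells, macrophages and dendritic cells, and other non-lymphoid types together took 1% or more of UMIs. Of these 84 cells, 13.1% held an Il13 UMI (6.72 to 22.2) and 4.76% (1.31 to 11.7) did so at 1000 UMIs. The other 5460 filtered cells (median 2010 UMIs) had 20.8% (19.7 to 21.9), and 12.6% (11.7 to 13.5) at 1000 UMIs. Il13 averaged 33.3 CPM (counts scaled to the same total of UMIs in each group) in the former and 213.6 in the latter. None of 21 skin barcodes with such markers and no Cd3 UMI held Il13, a number of cells that allows a share of up to 14.3%. A share of the cells with a single UMI at the level of the 84 cells cannot be told apart from free RNA or from doublets.

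The labelled identity was checked on the markers of the sorted population. Ikzf2, the gene of the Treg transcription factor Helios, was detected in 93.2% of the Il13-positive cells, Ctla4 in 81.3%, Gata3 in 73.1% and Il1rl1 in 26.2%. At 1000 UMIs per cell the shares were 75.0% for Ikzf2, 60.3% for Ctla4, 48.7% for Gata3 and 12.3% for Il1rl1, against 17.9%, 21.4%, 16.7% and 5.95% in the 84 cells with markers of other types. The interval of Il1rl1 in the 84 cells (1.96 to 13.3) overlapped that in the Il13-positive cells (10.5 to 14.4). Foxp3 was detected in 71 of 1142 Il13-positive cells, or 6.22% (4.89 to 7.78), and in 5.25% (4.03 to 6.71) of the matched Il13-zero cells. At 1000 UMIs per cell the Foxp3 shares were 2.63% and 2.45%, against 0 of the 84 cells with markers of other types, which allows up to 3.57%. Foxp3 was thus detected in few of these sorted cells, and the Foxp3 shares of the 2 sides had overlapping intervals. Such a share is a rate of detection and does not show which cells lacked Foxp3 RNA. Of 11 mast cell and basophil markers, 5 had UMIs, with a summed level of 13.9 CPM in Il13-positive and 10.5 CPM in matched cells, while the defining genes Cpa3, Mcpt8, Fcer1a and Ms4a2 were at 0 in both groups. Of the 10 ILC2 genes, 2 were at 50 CPM or more: Calca, which was higher, and Il1rl1, which was not. T cells of other kinds that could make these cytokines were only partly covered, since T cell receptor segments were not analysed here.

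Over the 2973 genes with at least 50 CPM on either side, 13 genes (0.437%) were at least 1.5-fold higher in the Il13-positive cells on the scale of log2(CPM + 5), and 51 (1.72%) at least 1.5-fold lower. At 2-fold the counts were 3 (0.101%) and 19 (0.639%). The lower side was largely made of genes of other cell types. Of the 51 lower genes, 40 were at least 4-fold higher in the 84 cells described above than in the remaining cells, and 31 of those 84 cells had been drawn as matched Il13-zero cells against 11 that were Il13-positive. Dcn, the fibroblast gene of a collagen-binding proteoglycan, stood at 413 CPM in Il13-positive and 1003 CPM in matched Il13-zero cells, and the MHC class II gene H2-Aa at 31.1 and 179 CPM. Over the whole fibroblast list, 6 of 7 measured genes were lower, with a summed level of 2388 CPM against 4614 CPM. Of the macrophage and dendritic cell list, 3 of 4 measured genes were lower, with 588.9 CPM against 1461 CPM.

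Leaving out the 84 cells and matching again changed the lower side most. Over 1131 cells on each side and 2933 genes, 11 (0.375%) were at least 1.5-fold higher and 12 (0.409%) at least 1.5-fold lower. At 2-fold, 2 genes (0.0682%) were higher and 0 (0%) lower. Of these, 10 higher and 10 lower genes were shared with the comparison of all cells. Grn, Ms4a6b and Sh2d1a were gained, and Fgl2, Fkbp5 and the integrin gene Itgb1 (log2 ratio -0.59 over all cells, -0.55 here) fell short of 1.5-fold. Dcn was then at 56.6 and 50.1 CPM and H2-Aa at 17.4 and 17.7 CPM. The summed fibroblast list stood at 358 and 342 CPM. Retnla, a macrophage gene 2.19-fold higher over all cells, stood at 1.15-fold (0.782 to 1.69), and 1 cell had held 78.4% of its UMIs in the Il13-positive group. The values below come from all matched cells unless these cleaner cells, under 1%, are named.

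**Figure D2:**
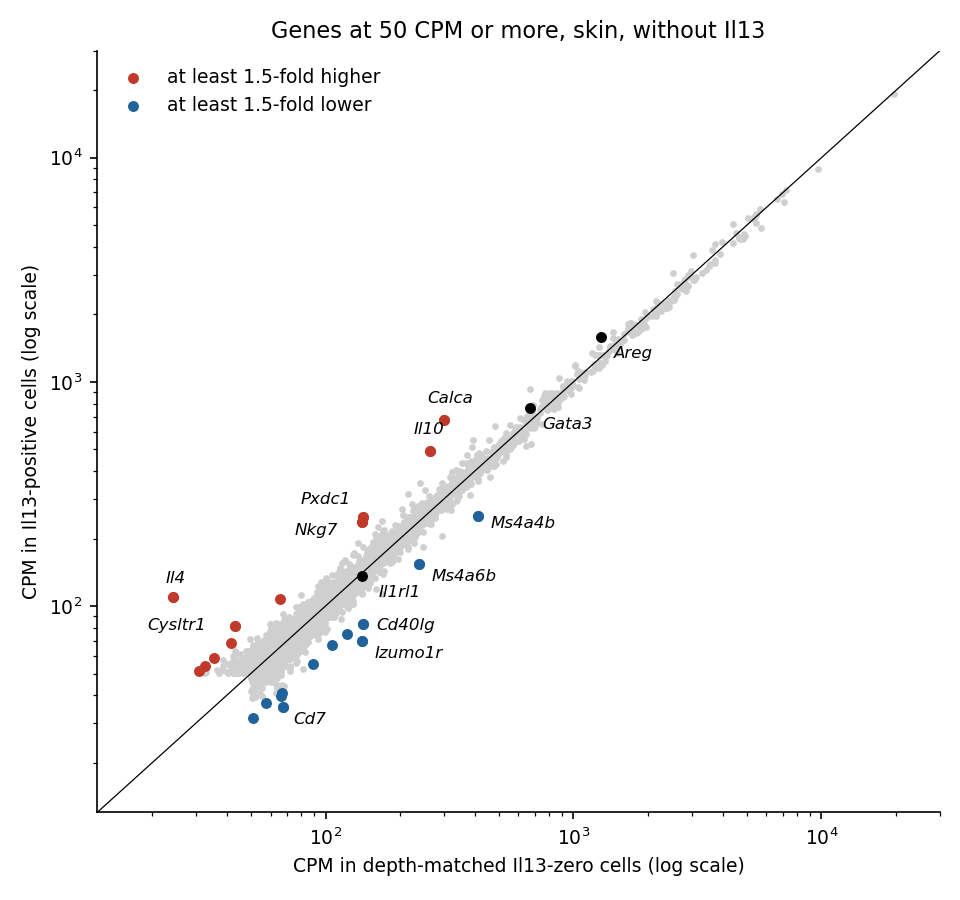
CPM in Il13-positive cells against CPM in depth-matched Il13-zero cells (both log scales) for the 2933 genes at 50 CPM or more, cells under 1% markers of other types; red and blue points are the 11 genes at least 1.5-fold higher and the 12 at least 1.5-fold lower, black points other genes named in the text. Il4 lies farthest above the line, while Gata3, Il1rl1 and Areg lie close to it.

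Among the cytokine genes, Il4 stood out. It had 315 UMIs in 177 Il13-positive cells (106 CPM) and 69 UMIs in 57 matched cells (23.3 CPM), a 4.56-fold difference (3.51 to 6.01). The cell with the most Il4 gave 3.49% of the UMIs, so that no single cell carried it. At 1000 UMIs per cell, 8.67% of Il13-positive cells (7.10 to 10.5) and 2.10% of matched cells (1.35 to 3.11) held an Il4 UMI. Of the 84 cells with markers of other types, 1 held an Il4 UMI before thinning and 0 after it, which allows up to 3.57%. Il5, the eosinophil growth factor gene, was near the limit of detection, with 21 UMIs in 14 Il13-positive cells and 6 UMIs in 5 matched cells, a ratio of 3.50 (1.37 to 10.6). This rested on the zero cells drawn: the log2 ratio of Il5 was 0.78 here, -0.02 with 2 Il13-zero cells per cell and -0.56 when matched on early-response genes, and it was past 1.5-fold in 13 of 18 alternatives. In cells under 1% with 1 Il13 UMI, Il5 had 4 UMIs. With 3 Il13-zero cells per cell the matched cells had 41, a ratio of 0.292 (0.0760 to 0.807). With 1 per cell they had 3, a ratio of 1.33 (0.226 to 9.10). Il9, Il31 and Il24 had 0 UMIs on both sides, where 3 counts would be 1.01 CPM. Rad50, which lies within the same cluster, was at 54.4 and 49.4 CPM, a ratio of 1.10 (0.875 to 1.39), so that the difference did not extend to it beyond counting error.

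Il10 (chr1:131019845-131024974, plus strand) was at 486 CPM in Il13-positive and 252 CPM in matched cells, 1.93-fold higher (1.76 to 2.11). An Il10 UMI was held by 41.9% of the former and 29.6% of the latter, and by 26.3% (23.7 to 28.9) and 16.99% (14.9 to 19.3) at 1000 UMIs. Il4 and Il10 were seen together in 96 Il13-positive cells, or 8.41% (6.86 to 10.2), and in 15 matched cells, or 1.31% (0.737 to 2.16). A further 163 Il13-positive cells (14.3%) held no UMI of Il4, Il5, Il10 or Areg, against 247 matched cells (21.6%). The list of 37 other cytokine and chemokine genes leaves out the type 2 list with Il4, and 12 were measured at 50 CPM or more. Of these 12, 1 was higher (Il10) and 1 lower (Cd40lg), beside 0.437% and 1.72% of all genes compared. Ccl5, a T cell chemoattractant, was at 75.0 and 95.7 CPM, a ratio of 0.784 (0.655 to 0.938), and Cxcl2, a neutrophil chemoattractant, at 114 and 146 CPM, a ratio of 0.782 (0.676 to 0.904). The direction of Cxcl2 rested on the cells and settings chosen. Under 18 alternatives its log2 ratio ran from -0.36 to 0.98, above 0 in 4 and past 1.5-fold higher in 2.

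Calca (chr7:114631478-114636357, minus strand) had the highest ratio after Il4 among genes at 50 CPM or more. It was at 661 CPM in Il13-positive and 281 CPM in matched cells, 2.35-fold higher (2.17 to 2.55), with UMIs in 512 and 327 cells. At 1000 UMIs the shares were 30.1% (27.5 to 32.9) and 18.6% (16.3 to 20.9), against 5.95% (1.96 to 13.3) of the 84 cells with markers of other types. The counts per gene do not separate the calcitonin from the CGRP transcript. Of the 17 genes listed for repair factors and neuropeptides, 9 were measured, and Calca was the 1 that was at least 1.5-fold apart. Over all genes compared, 0.437% were at least 1.5-fold higher and 1.72% lower. Areg, which encodes amphiregulin, was at 1551 and 1200 CPM, 1.29-fold higher (1.24 to 1.35). Penk, the enkephalin precursor gene, was at 159 and 133 CPM, a ratio of 1.20 (1.05 to 1.38). Ramp3, a subunit of adrenomedullin and CGRP-family receptors, was at 46.6 and 64.9 CPM, a ratio of 0.718 (0.573 to 0.899).

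**Figure D3:**
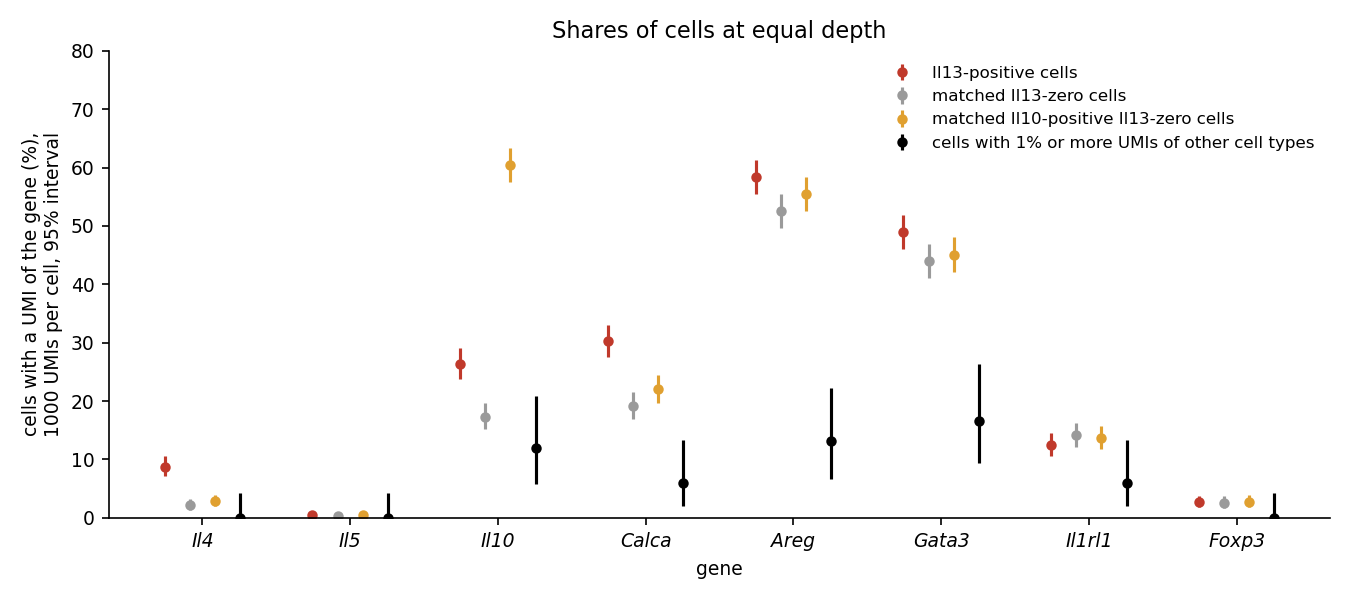
Share of cells with a UMI of each gene after thinning to 1000 UMIs per cell, with 95% intervals, in Il13-positive cells, matched Il13-zero cells, matched Il10-positive Il13-zero cells (all under 1% markers of other types) and the 84 cells at 1% or more. Il4 and Calca are higher in the Il13-positive cells than in both matched groups, Foxp3 and Il1rl1 are not; Il10 chose the cells of the third group.

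The rest of the type 2 list moved little. Of its 24 genes, 15 were measured at 50 CPM or more. Of these, 1 (Il4) was at least 1.5-fold higher and 0 were lower, beside 0.437% and 1.72% of all genes compared. The median log2 ratio of the list was 0.15, beside 0.02 over all genes compared. For 8 of the 15 the counting interval lay above 1, and for 1 below, against 313 (10.5%) above and 245 (8.24%) below among the 2973 genes. Gata3 was at 745 and 639 CPM, 1.17-fold higher (1.10 to 1.24), and was detected in 48.7% (45.8 to 51.6) and 43.3% (40.4 to 46.2) of cells at 1000 UMIs. Il1rl1 had 394 UMIs in each group, a ratio of 0.999 (0.867 to 1.15), in 299 cells on either side. Cd200r1, an inhibitory receptor of type 2 cells, was at 180 and 133 CPM, 1.36-fold higher (1.19 to 1.55). Maf, a transactivator of Il4 and Il10, was at 428 and 349 CPM, 1.23-fold higher (1.13 to 1.33), and Nfil3, a basic leucine zipper factor, at 165 and 131 CPM, 1.26-fold higher (1.10 to 1.44). Ccr4, a skin homing receptor, went the other way, with 40.2 and 61.5 CPM and a ratio of 0.653 (0.514 to 0.828), while Ccr8, another chemokine receptor of skin T cells, was at 102 and 83.5 CPM, a ratio of 1.22 (1.03 to 1.45).

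Several receptors and effector genes were among the others higher in Il13-positive cells. Cysltr1 (chrX:106574346-106603679), a receptor for cysteinyl leukotrienes, was at 79.1 CPM in 181 cells and 41.6 CPM in 99 cells, 1.90-fold higher (1.52 to 2.38). Nkg7, a protein of cytotoxic granules, was at 230 and 131 CPM, 1.76-fold higher (1.55 to 1.99). Pxdc1, a gene named for its PX domain, was at 244 and 138 CPM, 1.78-fold higher (1.57 to 2.01). The trefoil peptide gene Tff1, the CaMKII inhibitor gene Camk2n1, the torsin gene Tor1a and the nuclear envelope gene Syne2 stood between 1.59-fold and 1.70-fold over all cells. Fkbp5, a glucocorticoid-induced cochaperone, and Fgl2, a secreted suppressive factor of Tregs, were at 1.63-fold and 1.53-fold over all cells. On the log2(CPM + 5) scale both were under 1.5-fold in the cleaner cells, where Grn, the progranulin gene, was at 1.66-fold (1.28 to 2.16). Cysltr1, Pxdc1, Fkbp5, Fgl2, Syne2, Tff1 and Grn overlap other annotated genes, and whether the counting used strand is not given in the sources used here.

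No gene on the list of effector and tissue Treg genes was past 1.5-fold higher, Il10 and Fgl2 being counted among the suppressive genes. Of 29 listed effector and tissue Treg genes, 27 were measured over all cells and 0 were at least 1.5-fold higher on the log2(CPM + 5) scale, with a median log2 ratio of 0.11. The 1 lower gene was Ctsh, a lysosomal protease gene that stood at 765 CPM in the 84 cells with markers of other types and at 11.6 CPM in the remaining cells. The counting interval lay above 1 for 16 of the 27 and below it for 1, beside the 10.5% and 8.24% over all genes. Cxcr6, a receptor of tissue-resident T cells, was at 906 and 633 CPM, 1.43-fold higher (1.35 to 1.52). Klrg1, an inhibitory receptor of terminally differentiated Tregs, was at 309 and 205 CPM, 1.51-fold higher as a plain ratio (1.36 to 1.68). Gzmb, the granzyme B gene, was at 263 and 192 CPM, 1.37-fold higher (1.23 to 1.53). In the core Treg list, with 16 of 20 genes measured, 0 were higher and 1 was lower, Izumo1r, and the median was 0.15. Over all genes compared, 0.437% were higher and 1.72% lower. Il2ra, the high-affinity IL-2 receptor subunit, was at 212 and 162 CPM, 1.31-fold higher (1.16 to 1.48), and Ctla4, the checkpoint receptor, at 1147 and 952 CPM, 1.20-fold higher (1.15 to 1.27).

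The genes lower in Il13-positive cells, once cells with markers of other types were left out, were of another kind. Izumo1r was at 69.8 CPM in Il13-positive and 140 CPM in matched cells, a ratio of 0.498 (0.418 to 0.591). Cd7, a T cell surface glycoprotein, was at 35.4 and 67.1 CPM, a ratio of 0.528 (0.411 to 0.674). Cd40lg was at 83.0 and 142 CPM, a ratio of 0.584 (0.495 to 0.686). A pair of Ms4a genes, of a family of membrane proteins, were both lower: Ms4a4b was at 252 and 412 CPM, a ratio of 0.613 (0.558 to 0.673), and Ms4a6b at 154 and 239 CPM, a ratio of 0.644 (0.570 to 0.726). The adaptor gene Sh2d1a, the kelch gene Klhl6, the tetraspanin gene Tspan13, the actin regulator gene Evl, the Rac exchange factor gene Tiam1 and the chloride transporter gene Clcn4 had ratios between 0.599 and 0.638, as had the unnamed model Gm8369 (0.614). Ms4a4b and Ms4a6b have close paralogs, among which the counting could divide reads. Slamf6, a receptor that signals through the product of Sh2d1a, was at 52.5 and 81.1 CPM, a ratio of 0.647 (0.524 to 0.798), which on the log2(CPM + 5) scale was under 1.5-fold.

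Of the 16 suppressive genes listed, 12 were measured and 2 were higher over all cells, Il10 and Fgl2, beside 0.437% of all genes. In the cells under 1% there was 1, Il10. Over all cells matched on early-response genes as well as depth, Il10 fell short of 1.5-fold. Other programmes showed no gene past 1.5-fold in either direction over all cells: T cell receptor-induced genes (19 of 27 measured), early-response genes (21 of 24), cytokine receptors (15 of 20), TNF receptor family genes (9 of 17), oxidative phosphorylation (19 of 19), glycolysis and hypoxia (14 of 22) and secretory pathway genes (22 of 25). Among the IL-1 family receptors, with 4 of 13 measured, the IL-18 receptor gene Il18r1 was at 99.3 and 123 CPM, a ratio of 0.805 (0.688 to 0.941), and the median was -0.15. The immediate early gene Nr4a1 was at 1643 and 1407 CPM, 1.17-fold higher (1.12 to 1.22), while its relative Nr4a2 was at 118 and 155 CPM, a ratio of 0.758 (0.657 to 0.873). Nfkbia, the NF-kB inhibitor gene, was at 2995 and 2429 CPM, 1.23-fold higher (1.20 to 1.27). Of the interferon-stimulated genes 0 of 8 measured were past 1.5-fold. Among them Isg15 was at 42.9 and 59.8 CPM, a ratio of 0.717 (0.566 to 0.906), and Ly6a at 601 and 480 CPM, a ratio of 1.25 (1.17 to 1.34).

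Early-response genes, which tissue digestion can induce, took a median of 2.66% of UMIs in Il13-positive cells and 2.48% in matched cells. When Il13-zero cells were matched on this share as well as on depth, the log2 ratio of Il4 was 1.62 in place of 1.98, that of Calca 1.16 in place of 1.22 and that of Cysltr1 0.78 in place of 0.85. Il10 went from 0.93 to 0.52, which is under 1.5-fold, as Nkg7 did, from 0.79 to 0.55. On the lower side Cd40lg stood at -0.69 in place of -0.71 and Ms4a4b at -0.63 in place of -0.65. Izumo1r went from -0.90 to -0.58, which also fell short of 1.5-fold. In that comparison 6 genes were higher and 25 lower.

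For Il4, Calca and Il10, the difference was larger in classes of cells that held more Il13. Each class was compared with its own depth-matched Il13-zero cells among cells under 1%, with 3 Il13-zero cells per cell. Il4 was at 71.2 CPM in cells with 1 Il13 UMI, 138 CPM with 2 to 3 and 213 CPM with 4 or more, which was 2.62-fold (2.04 to 3.35), 4.57-fold (3.23 to 6.50) and 7.72-fold (5.31 to 11.4) over the matched cells. Calca was at 520, 786 and 1091 CPM, and its ratios were 1.58 (1.45 to 1.71), 2.80 (2.47 to 3.17) and 3.91 (3.43 to 4.46). Il10 was at 386, 553 and 812 CPM, with ratios of 1.36 (1.24 to 1.49), 2.08 (1.80 to 2.38) and 2.89 (2.51 to 3.33). For these 3 genes the intervals of the 3 classes did not overlap in the order of Il13, apart from the neighbouring intervals of Il4.

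**Figure D4:**
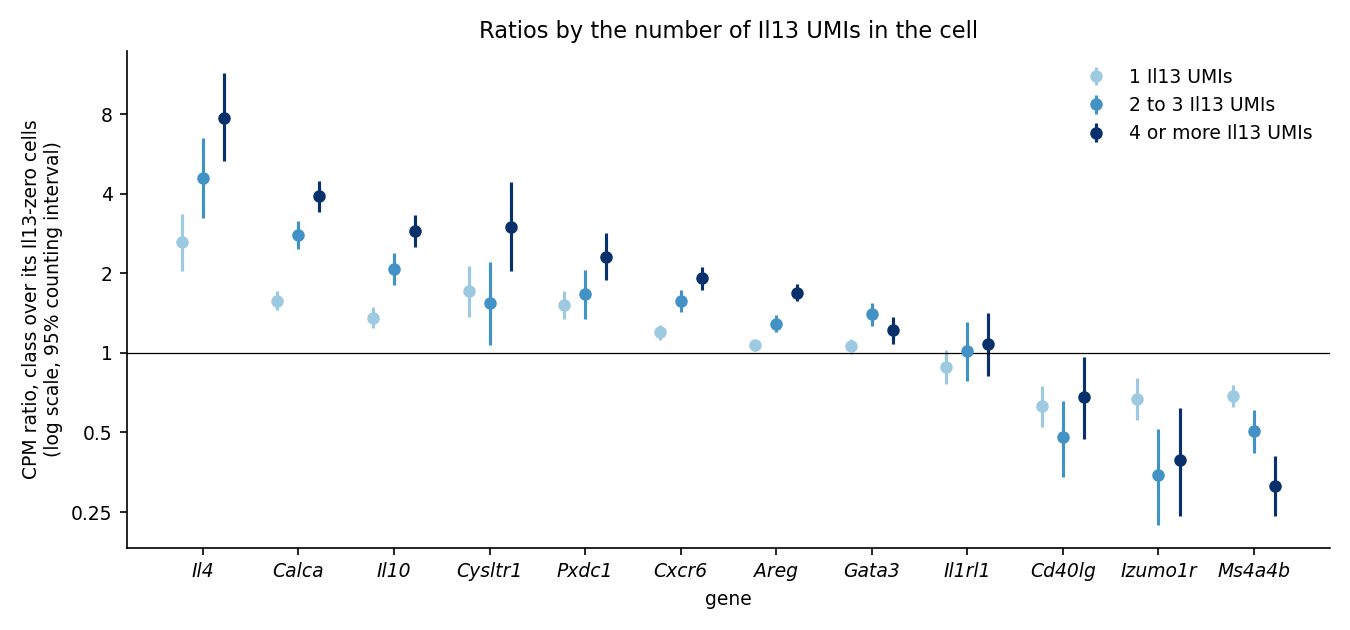
CPM ratio of each class of Il13-positive cells (1, 2 to 3, 4 or more Il13 UMIs) over its own depth-matched Il13-zero cells, on a log scale with 95% counting intervals, cells under 1% markers of other types. Il4, Calca, Il10, Pxdc1, Cxcr6 and Areg are ordered by Il13, Il1rl1 stays near 1, and Ms4a4b goes down. Cysltr1, Gata3, Cd40lg and Izumo1r are not ordered.

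Some genes that differed by less over all members, such as Areg, Cxcr6 and Klrg1, were farther apart in the cells richest in Il13. Areg had a ratio of 1.07 (1.02 to 1.12) in cells with 1 Il13 UMI and 1.69 (1.57 to 1.82) in those with 4 or more. The ratios of Cxcr6 were 1.20 (1.12 to 1.27) and 1.92 (1.73 to 2.12), and those of Klrg1 1.15 (1.03 to 1.29) and 2.18 (1.84 to 2.58). Others were not ordered in this way. Over the 3 classes Maf had ratios of 1.18, 1.20 and 1.20, Nfil3 1.25, 1.16 and 1.07, and Rora 1.04, 1.23 and 0.987. Gata3 was not ordered, with 1.06 (0.990 to 1.13), 1.40 (1.26 to 1.55) and 1.22 (1.08 to 1.37), and all 3 intervals of Il1rl1 contained 1. Ms4a4b was lower in each class, with ratios of 0.687 (0.624 to 0.756), 0.507 (0.419 to 0.610) and 0.315 (0.241 to 0.406), while the intervals of Izumo1r in the upper 2 classes overlapped, at 0.345 (0.223 to 0.516) and 0.395 (0.241 to 0.618). Among the 11 higher genes, 5 were ordered over all 3 classes and 10 were higher in the top class than in the lowest. Among the 12 lower genes, 4 were ordered downwards and 7 had a lower ratio in the top class than in the lowest. Cd40lg, with 0.629, 0.479 and 0.683, and Cd7, with 0.541, 0.557 and 0.599, did not. Such counts over all genes compared are not given here. The 3 classes had median depths of 2159, 2310 and 2325 UMIs. The class with 1 Il13 UMI is the one in which free RNA would weigh most, and its part in these smaller ratios was not tested.

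When all filtered skin cells were clustered without Il13, the Il13-positive cells were found in each of the 9 clusters in unequal shares. Cluster 2, led by Cxcl2, the leukotriene receptor gene Ltb4r1, Ccr1, Klrg1 and Il10, had 321 of its 960 cells Il13-positive, or 33.4% (30.5 to 36.5), and 21.4% (18.8 to 24.1) at 1000 UMIs. It held 78 of the 175 cells with 4 or more Il13 UMIs, or 44.6%. Cluster 5, led by Izumo1r, Tbc1d4 and Ccl1, had 11.9% (9.26 to 15.02), and 4.81% (3.14 to 7.02) at 1000 UMIs. It held 4 of the cells with 4 or more Il13 UMIs. Cluster 6, led by S1pr1, the receptor for lymphoid exit, and by Ms4a4b and Gimap4, had 8.78% (6.45 to 11.6), and 4.19% (2.61 to 6.34) at 1000 UMIs, with none of the cells with 4 or more. These low shares were at the level of the 84 cells with markers of other types, 4.76% at 1000 UMIs. Those 84 cells also held Cd3 UMIs, so their share cannot be split into free RNA and doublets with T cells. Clusters 0, 1, 3 and 4 lay between 10.4% and 14.1% at 1000 UMIs. Cluster 7, 88 cells led by Dcn and collagen genes, had 3.41% (0.709 to 9.64) at 1000 UMIs, and cluster 8, 12 cells led by MHC class II genes, had 0, which allows up to 25%. Clusters are called by number here.

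**Figure D5:**
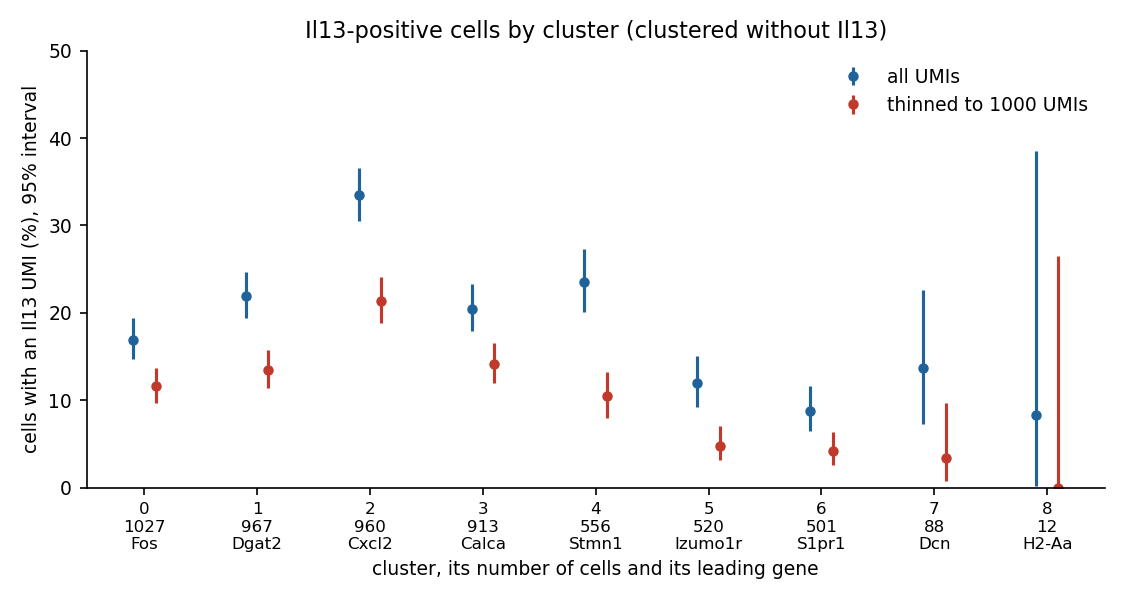
Share of cells with an Il13 UMI in each of 9 clusters made without Il13, before and after thinning to 1000 UMIs, with 95% intervals; the cell number and leading gene stand under each cluster. Cluster 2 has the highest share, 33.4% before and 21.4% after thinning, and clusters 5 and 6 the lowest among those with over 100 cells.

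A small set of chosen genes was compared within clusters, and among them Il4 and Calca differed in the most clusters. Il4 was higher in Il13-positive than in depth-matched Il13-zero cells of the same cluster in all 7 clusters with at least 44 Il13-positive cells, with the counting interval above 1 in 6. In clusters 0 to 4 its ratio ran from 3.20 (1.47 to 7.67) to 4.10 (2.02 to 9.17), and in clusters 5 and 6 the matched cells held 0 Il4 UMIs against 39.5 CPM and 7.89 CPM, the latter from 1 UMI. Calca was above 1 in 7 of 7 clusters and its interval in 6. Its ratio was 1.59 (1.42 to 1.78) in cluster 2, 2.21 (1.85 to 2.64) in cluster 3, which Calca leads, and 5.24 (2.80 to 10.7) in cluster 5. Il10 was above 1 in 5 of 7, with 1.35 (1.21 to 1.51) in cluster 2. Areg had its interval above 1 in 1 of 7 clusters, and Gata3 in 1. Cxcr6 had its interval above 1 in 4 of 7, and Nkg7 and Cysltr1 in 2 each. The ratio of Nkg7 ran from 0.907 to 2.18 and that of Cysltr1 from 0.880 to 5.49. Izumo1r was not lower within clusters beyond counting error, being above 1 in 5 of 7, with 583 and 534 CPM in the Izumo1r-led cluster 5. The clustering left out only Il13, and Izumo1r, Il10 and Calca are among the genes that lead clusters. Grouping cells by such genes can itself take away part of their difference. Their smaller ratios within clusters therefore cannot show what lies behind the difference over all cells.

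A further comparison was made with Il10-positive cells without Il13, of which there were 1254 among all filtered skin cells. Both sides were taken from the cleaner cells, under 1%. After depth matching, 1127 cells on each side and 2923 genes were compared, leaving Il10 out because it chose the second group. In the Il13-positive cells 2 genes (0.0684%) were at least 1.5-fold higher and 3 (0.103%) lower. The 2 were Il4, at 109 against 31.3 CPM, 3.49-fold (2.75 to 4.47), and Calca, at 675 against 431 CPM, 1.57-fold (1.46 to 1.68). The 3 lower genes were Cxcl2, at 114 against 244 CPM, Ccl21a, of which 1 cell of the Il10-positive group held 93.3% of the UMIs, and the model 1700097N02Rik. An Il4 UMI was held by 15.6% of the Il13-positive cells and 6.03% (4.72 to 7.59) of the Il10-positive ones, and an Il5 UMI by 14 and 13 cells. Izumo1r was detected in 10.5% and 11.1% of cells.

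Among the cleaner cells, under 1%, the Il13-positive cells differed among themselves by Il10. With 469 cells holding an Il10 UMI against 469 without, matched on depth (medians of 2407 and 2393 UMIs) and over 3002 genes, 21 genes (0.7%) were at least 1.5-fold higher and 21 (0.7%) lower, Il10 being left out. Cells with Il10 had more Il4, at 152 against 75.0 CPM, 2.03-fold (1.58 to 2.63), and more Calca, at 840 against 492 CPM, 1.71-fold (1.54 to 1.89). Neb, the nebulin gene found in Tregs, was at 93.4 against 37.1 CPM, 2.52-fold (1.78 to 3.62), and the chemokine receptor gene Ccr1 at 50.3 against 20.2 CPM, 2.49-fold (1.55 to 4.13). Ms4a4b was at 163 against 356 CPM, a ratio of 0.457 (0.385 to 0.540), Cd7 at 24.3 against 50.03 CPM, a ratio of 0.487 (0.306 to 0.760), and Tnfsf8, the CD30 ligand gene, at 81.7 against 148 CPM, a ratio of 0.553 (0.430 to 0.707). Il4, Calca and Neb were thus higher, and Ms4a4b and Cd7 lower, in the Il13-positive cells that also carried Il10. An Il10 UMI was held by 37.0% of cells with 1 Il13 UMI, 48.7% with 2 to 3 and 54.3% with 4 or more. The split was matched on depth only, so Il10 and the amount of Il13 cannot be told apart in it.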

How the data were processed

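The authors deposited raw UMI counts, 1 value per gene and barcode, for barcodes already called as cells; per the submitters' processing notes Cell Ranger and mm10 were used, with no version given for skin, and per the file headers the lung matrix was written by software version 3.0.2. The skin matrix holds 16190303 UMIs and the lung matrix 24293511. A second, shallower lung table was not used.

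Counts were summed per group of cells and divided by the group's total without Il13 (CPM). Ratios carry exact binomial intervals and shares exact Clopper-Pearson intervals at 95%, for counting error only. A gene counts as higher or lower past 1.5-fold on log2(CPM + 5), at 50 CPM or more on either side. Il13-zero cells were drawn 1 per cell, deepest first, nearest in UMIs within 10%. Scrublet marked 1 cell, too few to be used; the 6% of cells with the highest scores were removed as an alternative. Clusters used 2000 variable genes, 30 components, 15 neighbours and Leiden resolution 0.8 (scanpy 1.11.5, leidenalg 0.10.2), without Il13. The summing and the intervals were tested on simulated data.

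The members, gene lists and settings were chosen with earlier results of these data known. Named genes are the 15 highest and 15 lowest ratios, leaving out genes of the rule, receptor segments, mitochondrial, ribosomal and haemoglobin genes and unnamed models, plus Gata3, Il1rl1, the type 2 list and up to 4 genes of each other list; genes outside it (such as Rad50, Gm8369, Tnfsf8 and the cluster-leading genes) were named after their values were seen. The cells under 1% markers of other types, the comparison without clusters 7 and 8 and the 3 Il13-zero cells per cell in the classes were chosen after seeing the data. T cell receptor segments were not analysed here.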

Additional observations from a re-analysis of the deposited data

How the results depend on the processing

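Counts of genes at least 1.5-fold apart depended on the cells drawn and on the number of UMIs behind each gene. Against the 13 higher and 51 lower genes reported, there were 13 lower genes with all Il13-zero cells unmatched; 8 higher and 33 lower with 2 Il13-zero cells per cell; 41 higher after thinning to 1000 UMIs; 7 higher with 20 CPM added; 30 higher and 117 lower at a floor of 20 CPM, and 7 and 21 at 100 CPM. There were 66 and 118 with at least 2 Il13 UMIs (412 cells before matching), 456 and 389 in cells with a Foxp3 UMI (72 Il13-positive cells), 44 higher without cells holding 2 or more UMIs of other cell types, 36 higher in cells at or below the median early-response share, and 6 and 25 when matched on that share. The number of genes compared differed too. It was 2973 as reported, 5557 at a floor of 20 CPM and 1545 at 100 CPM. It was 3071 with at least 2 Il13 UMIs and 3356 in cells with a Foxp3 UMI. Lower genes numbered 12 both without cells at 1% or more UMIs of other cell types and without clusters 7 and 8. The cause of the other differences was not tested. The share of called genes that were higher, 20.3% as reported, was 45.8% unmatched, 47.7% thinned, 35.9% with at least 2 Il13 UMIs, 51.8% without cells holding 2 or more UMIs of other cell types, 54.0% in cells with a Foxp3 UMI, 41.4% at or below the median early-response share and 47.8% both under 1% and without clusters 7 and 8; the other 10 alternatives lay between 15.2% and 25%.

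Il4 and Calca were at least 1.5-fold higher under all 18 alternatives, with log2 ratios from 1.54 to 4.49 and from 0.97 to 1.69; the highest value of Il4 is from Il13-zero cells chosen without Il4, Il5 or Il10 UMIs, where Il4 and Il10 are higher by construction. Cd40lg was lower under all 18 and Ms4a4b under 17. Il10 was past 1.5-fold under 16, Cysltr1 under 16 and Pxdc1 under 17. Of the values of named genes under the alternatives, 2084 kept within the counting interval of the reported value, 440 moved outside it and 32 reversed. The 32 are all of genes called higher or lower over all cells. Sign changes of other named genes are not among them. For example, Cxcl2 reached 0.98, Sh2d1a 0.20 and Il5 -0.56. Retnla reversed at 2 Il13 UMIs (-1.45). Without cells holding 2 or more UMIs of other cell types, Mfap4 (0.088), H2-Eb1 (0.28), H2-Ab1 (0.093), Igfbp5 (0.42), Serpinh1 (0.83), Sparc (0.59) and Col3a1 (0.36) reversed. In cells with a Foxp3 UMI, Fkbp5 (-0.46), Mfap4 (1.29), Cd63 (0.95), Dcn (0.67), Serpinh1 (0.97), Evl (0.44), Sparc (0.72) and Col3a1 (0.40) did. Without cells at 1% or more, Mfap4 (0.33), H2-Eb1 (0.48), Igfbp5 (0.12), Tgfbi (0.13), Dcn (0.16), Cd74 (0.053), Sparc (0.12), Col3a1 (0.070) and the medians of the fibroblast (0.036) and macrophage and dendritic (0.015) lists did. Without clusters 7 and 8, the values were Mfap4 0.33, H2-Eb1 0.46, Igfbp5 0.12, Tgfbi 0.13, Dcn 0.16, Cd74 0.087, Sparc 0.12, Col3a1 0.059, fibroblast list 0.055 and macrophage and dendritic list 0.0427. The median over all genes stayed between -0.0018 and 0.039. Shares of cells moved with depth, 26 of 28 leaving the interval of the thinned value without thinning or at 1500 UMIs per cell.

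No paired analysis was possible because there is 1 skin library. With 1 library, the spread between mice is not known, and genes of a few UMIs, such as Il5, have counting intervals that span several-fold.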
